A study of Mus musculus with 6 samples.

Results

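Nox4 and 9 other genes that form, convert or remove hydrogen peroxide were followed in 2 sorted fractions of mouse mammary cells. The genes are Nox4, Cyba, Duox1, Sod1, Sod2, Sod3, Cat, Gpx1, Gpx3 and Prdx1. They were taken as every non-control probe whose transcript maps to one of these symbols, which gave 14 of the 55681 probes on the array. All 10 genes were tested, and 13 of the 14 probes were well above background in Cy5 on at least 3 of the 6 arrays. The members were chosen by measured values, with the differences between the 2 fractions on these same arrays already known. Those differences are therefore described here, and counts of members past a test on them only describe the set. The study sorted mammary cells of C57/B6 mice, all virgin and of genotype lgr5-egfp-ires-creert2, in which EGFP is expressed from the Lgr5 locus. Within a gate named P4 (Lin-CD24+CD29hi), GFP+ cells form the Lgr5-positive fraction and GFP- cells the Lgr5-negative fraction, with 3 arrays each, and both share strain, genotype and virgin state. The labels do not give the age of the mice, how many alleles carry the reporter, whether mice were pooled, or which markers make up Lin. Lgr5 itself was 2.77-fold higher in the Lgr5-positive fraction (mean log2 ratio 4.87 ± 0.57, against 3.40 ± 0.61 in the Lgr5-negative fraction, SD, n = 3 each). Each sample was labelled with Cy5 and hybridised beside a universal mouse reference RNA in Cy3, a mix of 11 cell lines.

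Hydrogen peroxide is made by NADPH oxidases and by superoxide dismutases, and at low levels it acts as a signal that oxidises reactive cysteines of phosphatases and other proteins. Nox4, unlike most NADPH oxidases, releases mainly hydrogen peroxide, needs the membrane partner p22phox (Cyba) and is regulated mostly through its amount. Catalase, glutathione peroxidases and peroxiredoxins remove the peroxide, and the thioredoxin and glutathione systems recharge them.

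The unit throughout is the log2 ratio of Cy5 over Cy3 after background correction and loess within each array, so 0 is the level in the reference RNA relative to the bulk of spots, and a difference is Lgr5-positive minus Lgr5-negative. Arrays with the same replicate number deviated together from their group means and are called pairs. The SE of a difference between the fractions comes from the fit on the group alone, which ignores the pairs, unless stated. Median Cy5 signal over all probes was 137 to 169 on the Lgr5-positive arrays and 200 to 278 on the Lgr5-negative arrays, with a median Cy5 background of 64 to 76, and no spot was saturated (0). The share of probes well above background in Cy5 was 67.3%, 58% and 50.9% on Lgr5-positive arrays 1 to 3. It was 56.3%, 74.4% and 58.7% on the Lgr5-negative arrays. All 6 arrays were on 1 slide and were scanned together. In this gate the basal mammary markers had a mean log2 ratio of 3.50 to 3.66 on Lgr5-positive arrays and 2.96 to 3.17 on Lgr5-negative arrays. Of their 10 differences, 9 were positive (0 past the test with the group alone, 4 higher with the replicate pairs as a block). The 4 were Lgr5, Cdh3, Oxtr and Krt17. Lgr5 is in this list although its reporter defined the fractions, so its place among the 4 follows from the sort. It also widens the gap between the list means. Of 11 endothelial markers tested, 10 had negative differences and 3 were lower at an adjusted p under 0.05 (limma; 8 with the block), with a mean log2 ratio of 1.27 to 2.27 on Lgr5-positive arrays and 3.01 to 3.51 on Lgr5-negative arrays. Tie1 was well above background on no Lgr5-positive array (0 of 3). Fibroblast markers had 9 negative differences of 9 (mean log2 ratio -1.29 to -1.12 on Lgr5-positive arrays, -0.58 to -0.41 on Lgr5-negative arrays, 0 past the test and 5 lower with the block). Pericyte and vascular smooth muscle markers had 7 of 8 (-0.19 to 0.26, against 0.41 to 0.84 on Lgr5-negative arrays, 0 past the test and 4 lower with the block). The mean levels of leukocyte markers overlapped between the groups (11 tested, 0 past the test in either fit, -0.33 to 0.28 on Lgr5-positive arrays and -0.57 to 0.13 on Lgr5-negative arrays). The mean levels of luminal markers overlapped too (12 tested, 0.72 to 1.22 on Lgr5-positive arrays and 0.97 to 1.49 on Lgr5-negative arrays). Their differences were mixed, with 5 positive and 7 negative. With the block, 3 were lower (Kit, Esr1 and Foxa1) and 0 higher, and 0 passed the test with the group alone. A second kept Esr1 probe was at -0.14, against -1.26 on the tested one, and a second kept Prlr probe at -1.71, against -0.14. Among endothelial markers, second kept probes were at -2.66 for Kdr (tested 0.18), -1.02 for Plvap (tested -2.41) and -1.56 for Sox17 (tested -1.10). Among basal markers they were at -0.21 for Krt5 (tested 0.36) and 0.17 for Trp63 (tested 0.07). Among all genes tested, 0.612% passed with the group alone and 7.72% with the block (2.1% higher and 5.61% lower). Fewer cells of a type and less RNA per cell cannot be told apart in such bulk samples.

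Promoters are shown for Nox4 and Prdx1, the members whose tested probe was higher on every Lgr5-positive array than on any Lgr5-negative one, and for Gpx3, one of the members that was lower without overlap. The others that were lower without overlap were Sod1, whose promoter is not printed here, and Sod3. RefSeq (GRCm38.p6) held promoters for 9 of the 10 genes, all but Sod3. Each run goes from 250 bases before the annotated start to 50 bases from it, 5′ to 3′ on the gene's strand. Capitals mark matches, on either strand, to the core of the antioxidant response element (TGACNNNGC), which is bound by Nrf2, or to the AP-1 site (TGANTCA).
Nox4, chr7:87246399-87246698, plus strand: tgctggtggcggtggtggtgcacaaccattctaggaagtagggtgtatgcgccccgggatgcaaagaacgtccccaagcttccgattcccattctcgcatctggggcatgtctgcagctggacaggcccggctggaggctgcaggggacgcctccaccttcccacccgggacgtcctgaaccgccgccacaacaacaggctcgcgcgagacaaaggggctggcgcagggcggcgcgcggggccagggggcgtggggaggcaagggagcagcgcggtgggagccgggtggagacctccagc
Prdx1, chr4:116685349-116685648, plus strand: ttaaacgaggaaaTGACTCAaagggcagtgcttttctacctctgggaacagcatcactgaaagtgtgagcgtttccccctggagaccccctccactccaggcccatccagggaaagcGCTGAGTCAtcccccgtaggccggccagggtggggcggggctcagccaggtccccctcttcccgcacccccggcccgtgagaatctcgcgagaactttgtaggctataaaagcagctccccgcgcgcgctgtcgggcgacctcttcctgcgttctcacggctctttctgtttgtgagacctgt
Gpx3, chr11:54902604-54902903, plus strand: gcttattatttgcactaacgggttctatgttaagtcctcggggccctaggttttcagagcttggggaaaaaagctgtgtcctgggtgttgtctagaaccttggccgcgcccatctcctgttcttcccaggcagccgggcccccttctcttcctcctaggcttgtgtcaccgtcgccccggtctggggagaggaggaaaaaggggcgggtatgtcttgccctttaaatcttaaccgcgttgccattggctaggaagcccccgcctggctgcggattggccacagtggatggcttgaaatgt
The Prdx1 promoter held 2 AP-1 matches and 1 antioxidant response element core, and the second AP-1 match overlaps that core. Neither pattern occurred in this window of Nox4 or Gpx3, while that of Sod1 held 1 antioxidant response element core. Of all 32851 promoters in the table, 12.4% held the antioxidant response element core and 7.81% the AP-1 site. Among the 9 members with a promoter, 2 held the core (Sod1 and Prdx1) and 1 held the AP-1 site.

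Among the oxidases and their partner, Nox4 had the largest difference, on 1 of its 2 probes. The brighter probe (A_55_P1972040) had log2 ratios of 4.90, 5.69 and 5.51 in replicates 1, 2 and 3 of the Lgr5-positive fraction, against 3.26, 4.15 and 3.71 in the Lgr5-negative fraction. The lowest Lgr5-positive array lay above the highest Lgr5-negative one. The means were 5.37 ± 0.41 and 3.71 ± 0.45 (SD, n = 3 each), a difference of 1.66 (SE 0.31), or 3.16-fold. With the pairs as a block the SE was 0.12. The 3 pairs gave 1.64, 1.54 and 1.80, a narrower range than the arrays of either group showed among themselves. Before normalization, Cy5 brightness was 1968, 5004 and 4306 on the Lgr5-positive arrays and 1331, 3203 and 2323 on the Lgr5-negative arrays. The Lgr5-positive array was the brighter one in each pair, but by less than the normalized ratio, and the groups overlapped on this raw scale. The reference RNA was dim at this probe, with a Cy3 brightness of 147 to 187 over the 6 arrays.

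The other Nox4 probe (A_51_P369311), assigned to the same transcript, did not show this. Its log2 ratios were 0.51, 0.89 and 0.45 on the Lgr5-positive arrays and 0.63, 0.41 and 0.30 on the Lgr5-negative arrays, so the groups overlapped. The difference was 0.17 (SE 0.17), with pairs at -0.13, 0.48 and 0.15. This probe was dim, with a Cy5 brightness of 190 to 410, although it passed as well above background on all 6 arrays. The size of the Nox4 difference depended on the probe read, and the mean of both probes gave a difference of 0.91.

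**Figure D1:**
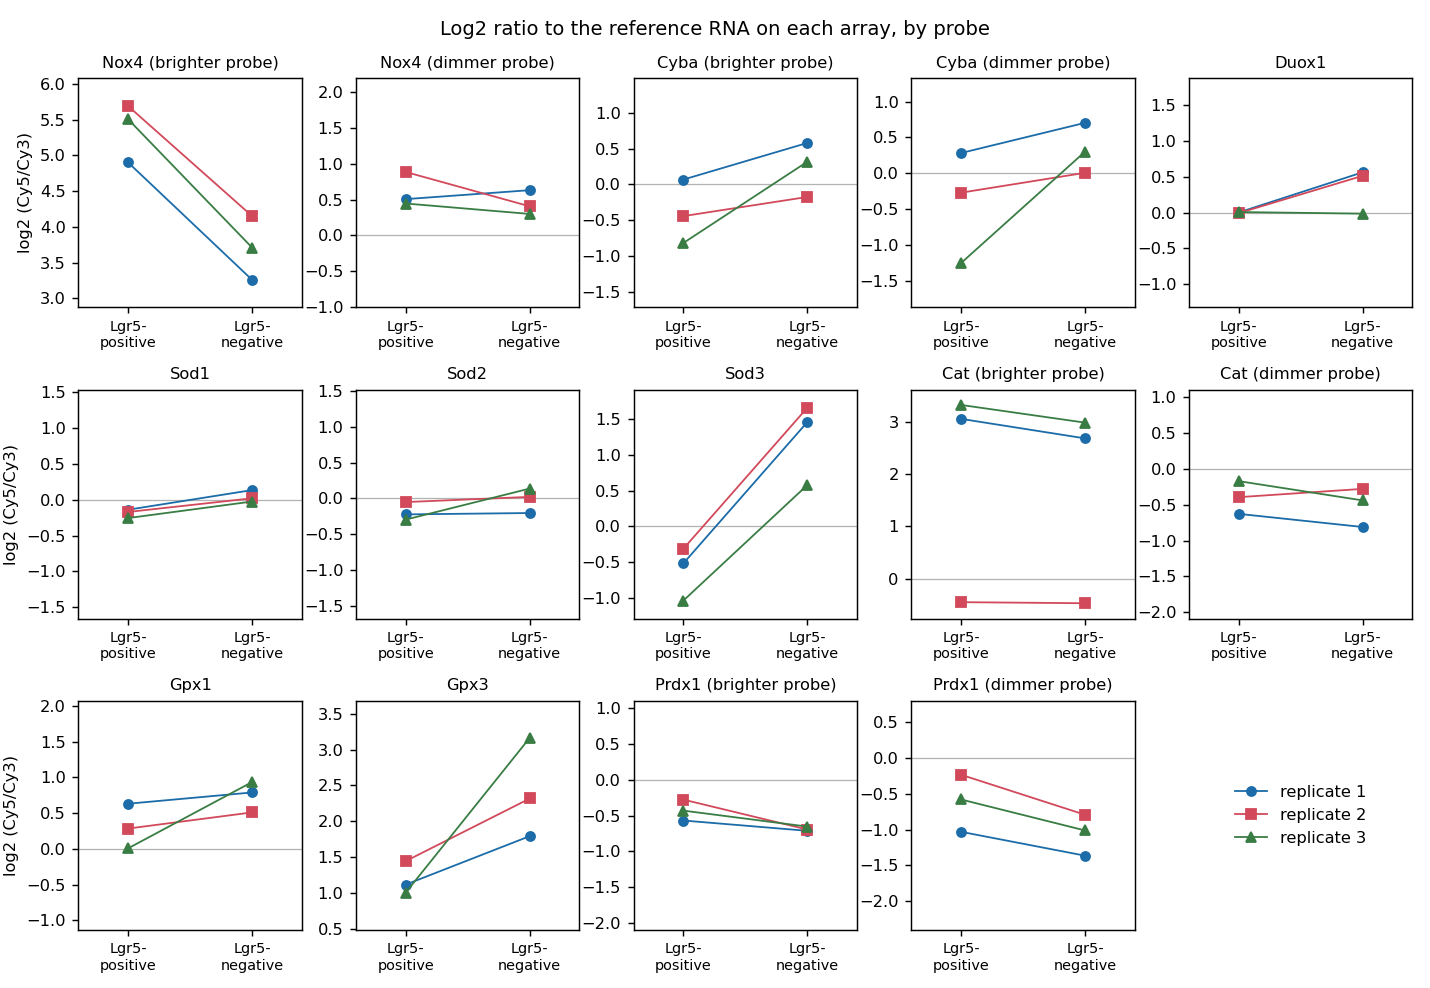
Log2 ratio of Cy5 over Cy3 for each of the 14 probes, with Lgr5-positive arrays on the left and Lgr5-negative arrays on the right of each panel; lines join arrays with the same replicate number, and panels have their own vertical range. The brighter Nox4 probe is higher on the Lgr5-positive array in all 3 pairs, Sod3 and Gpx3 are lower there in all 3, and the brighter Cat probe lies at -0.45 and -0.47 in replicate 2 and at 2.68 to 3.32 in the others.

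Cyba, the p22phox subunit that Nox4 needs, was lower. Its brighter probe had log2 ratios of 0.07, -0.44 and -0.82 on the Lgr5-positive arrays and 0.58, -0.18 and 0.32 on the Lgr5-negative arrays. Each pair was negative (-0.51, -0.27 and -1.14), but the groups overlapped. The mean difference was -0.64 (SE 0.30), or 1.56-fold lower, and the dimmer probe gave -0.75 (SE 0.39) with the same sign in all 3 pairs (-0.42, -0.28 and -1.56). Both probes were lowest on the Lgr5-positive array of replicate 3. Both Cyba probes thus had the opposite sign to the brighter Nox4 probe in each of the 3 pairs, whereas the dimmer Nox4 probe was also negative in replicate 1. The endothelial, fibroblast and pericyte markers were lower on these arrays as well, and their part in the value of Cyba was not tested.

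Duox1, a dual oxidase of epithelia that also releases hydrogen peroxide, was printed in 10 spots per array, which gives the technical error within an array. The SD over those spots was 0.07 to 0.17 per array. Its probe was dim, with a Cy5 brightness of 184 to 491. The log2 ratios were 0.00, -0.01 and 0.01 on the Lgr5-positive arrays and 0.56, 0.51 and -0.01 on the Lgr5-negative arrays. The pairs gave -0.56 and -0.52 in replicates 1 and 2 and 0.02 in replicate 3. The Lgr5-negative array of replicate 3 (-0.0148) lay level with the 3 Lgr5-positive ones (-0.0072 to 0.0079) relative to its spot SD of 0.17. The groups thus overlapped. Between arrays the SD was 0.0076 in the Lgr5-positive fraction and 0.32 in the Lgr5-negative fraction (n = 3 each). The mean difference was -0.35 (SE 0.20), and without replicate 3 it was -0.54.

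Of the superoxide dismutases, which turn superoxide into peroxide, Sod1 and Sod2 had small differences and Sod3 a large one. Sod1, the cytosolic enzyme, had log2 ratios of -0.14, -0.17 and -0.26 on the Lgr5-positive arrays and 0.14, 0.02 and -0.02 on the Lgr5-negative arrays. The groups did not overlap, but the difference was only -0.23 (SE 0.15), or 1.18-fold lower. Sod2, the mitochondrial enzyme, had -0.22, -0.05 and -0.30 on the Lgr5-positive arrays and -0.20, 0.02 and 0.14 on the Lgr5-negative arrays, and a difference of -0.18 (SE 0.18). These groups overlapped. Both probes were bright, with Cy5 brightness from 6920 to 45214 over the 2 genes.

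Sod3, the secreted dismutase that binds to the extracellular matrix and is abundant in vessel walls, had the largest difference of the 10 genes. Its log2 ratios were -0.52, -0.31 and -1.04 on the Lgr5-positive arrays and 1.46, 1.66 and 0.58 on the Lgr5-negative arrays. Every Lgr5-positive array lay below 0 and every Lgr5-negative array above it. The means were -0.62 ± 0.37 and 1.23 ± 0.58 (SD, n = 3 each), a difference of -1.86 (SE 0.34), or 3.62-fold lower. The pairs were at -1.98, -1.97 and -1.62, and the SE with the pairs as a block was 0.13. The Cy3 brightness of the probe was steady at 632 to 745, while its Cy5 brightness was 242, 361 and 231 on the Lgr5-positive arrays and 1134, 2008 and 1011 on the Lgr5-negative arrays. The endothelial markers had a median difference of -1.53 (11 genes) and the pericyte and vascular smooth muscle markers of -0.72 (8 genes) on the same arrays, against 0.01 over all genes tested. The part of those cells in the Sod3 value was not tested.

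**Figure D2:**
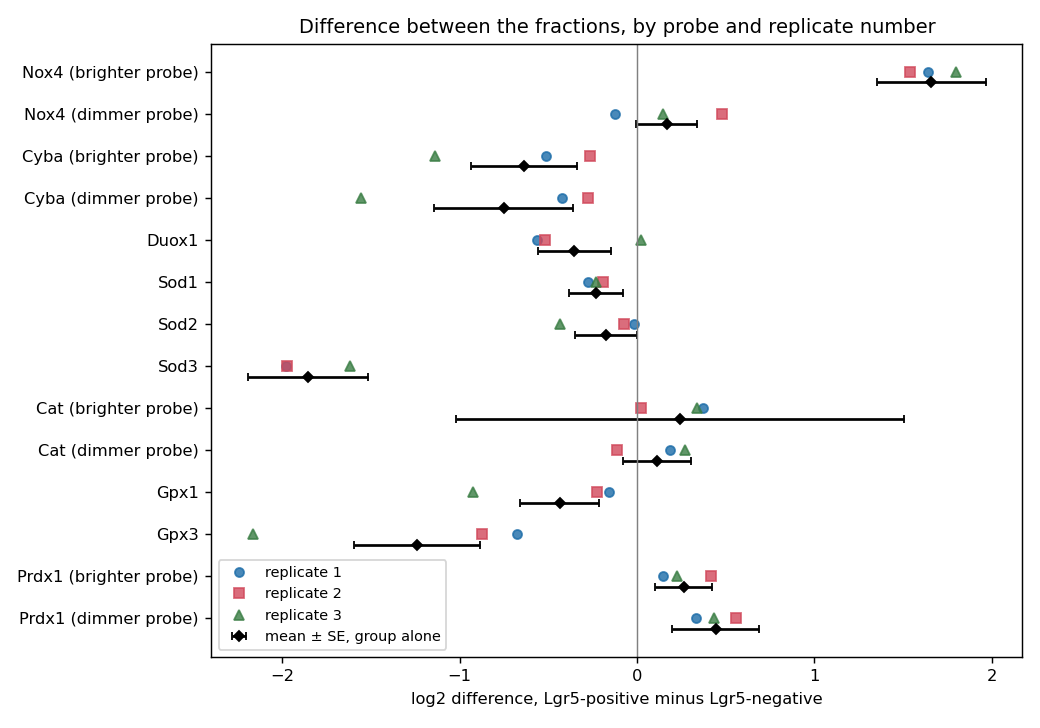
Log2 difference, Lgr5-positive minus Lgr5-negative, for each of the 14 probes; coloured points are the 3 pairs and the black diamond with its bar is the mean with the SE of the fit on the group alone (3 arrays per group). The brighter Nox4 probe lies to the right at 1.66 and Sod3 and Gpx3 to the left at -1.86 and -1.24; the wide bar of the brighter Cat probe comes with pair values of 0.02 to 0.37.

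Among the enzymes that remove peroxide, Gpx3, a secreted glutathione peroxidase, was lower. Its log2 ratios were 1.11, 1.44 and 1.00 on the Lgr5-positive arrays and 1.79, 2.32 and 3.17 on the Lgr5-negative arrays. The groups did not overlap, and the difference was -1.24 (SE 0.35, and 0.28 with the pairs as a block), or 2.36-fold lower. Its size varied between pairs (-0.68, -0.87 and -2.16). The difference was -0.87 without the Lgr5-negative array of replicate 3 and -0.78 without both arrays of replicate 3. On that array the Cy3 brightness of this probe was 336, against 88 to 142 on the other 5, although Cy3 carried the same reference RNA. The scanner's own ratio gave -0.83.

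Gpx1, the cytosolic and mitochondrial glutathione peroxidase, had log2 ratios of 0.63, 0.28 and 0.01 on the Lgr5-positive arrays and 0.79, 0.51 and 0.93 on the Lgr5-negative arrays. The groups overlapped, the difference was -0.44 (SE 0.22), and the 3 pairs were negative (-0.16, -0.23 and -0.93). Replicate 3 was again the widest.

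Prdx1, a cytosolic peroxiredoxin, went the other way. Its brighter probe had log2 ratios of -0.57, -0.28 and -0.43 on the Lgr5-positive arrays and -0.71, -0.69 and -0.65 on the Lgr5-negative arrays. The groups did not overlap, with a difference of 0.26 (SE 0.16), or 1.20-fold. The dimmer probe gave 0.44 (SE 0.25), positive in all 3 pairs (0.33, 0.56 and 0.43) but with overlapping groups. Centring each array on its median in place of loess turned these differences to -0.15 and -0.025, where the median difference of all genes was -0.29.

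Cat, the peroxisomal catalase, differed between pairs far more than between fractions. Its brighter probe had log2 ratios of 3.05, -0.45 and 3.32 on the Lgr5-positive arrays and 2.68, -0.47 and 2.98 on the Lgr5-negative arrays. Both arrays of replicate 2 were thus at least 8.87-fold below the other arrays of their own fraction, while the pairs themselves gave differences of 0.37, 0.02 and 0.34. The Cy5 brightness was 6925, 842 and 9381 on the Lgr5-positive arrays and 7170, 1274 and 13373 on the Lgr5-negative arrays, and the Cy3 brightness stayed at 2037 to 2758. The mean difference of 0.24 had an SE of 1.26 with the group alone and of 0.13 with the pairs as a block. The dimmer Cat probe was well above background on none of the Lgr5-positive arrays (0 of 3) and on 1 of the Lgr5-negative ones, and showed no such gap. Its difference was 0.11 (SE 0.19).

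Over the 10 genes, 3 had positive differences and 7 negative ones on the tested probe, with a median of -0.29, against 0.01 over all 15680 genes tested. The direction was the same in all 3 pairs for 9 genes, 3 higher and 6 lower, against 22.5% of all genes higher and 21.8% lower in all pairs. The groups did not overlap for 5 genes, 2 higher and 3 lower, where 12.2% of all genes did not overlap (4.06% higher and 8.14% lower). With the group as the only term, no member reached an adjusted p under 0.05 in limma (0 of 10, against 0.612% of all genes, 0.0255% higher and 0.587% lower, and 3 at an unadjusted p under 0.05). With the pairs as a block, 3 did, Nox4 higher and Sod3 and Gpx3 lower, against 7.72% of all genes (2.1% higher and 5.61% lower). Over the 7 settings fitted with the block, Nox4 and Sod3 passed in all 7 and Gpx3 in 4. Cyba, Duox1, Sod1, Sod2 and Gpx1 passed in 1 each, and Cat and Prdx1 in 0. Across the same settings, 326 to 5790 of the 15680 genes passed, the most with median centring. Since the set was assembled with this contrast known, these counts describe the set and are not evidence about it.

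Nox4 and Sod3 kept their direction under each of the 18 alternative settings, but not all of these could move the values. The block cannot change a mean difference, and no filter or a stricter filter on signal left both values as they were. The authors' deposited table gave the same differences as the scanner's ratios for these genes. The brighter Nox4 probe ranged from 0.91 to 1.89, with 1.08 under median centring, and Sod3 from -2.18 to -1.58. Gpx3 ranged from -1.56 to -0.78 and Cyba from -1.12 to -0.39. The brighter Cat probe was at -0.86 without the Lgr5-negative array of replicate 2 and at 1.46 without the Lgr5-positive one, and at -0.20 with median centring.

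**Figure D3:**
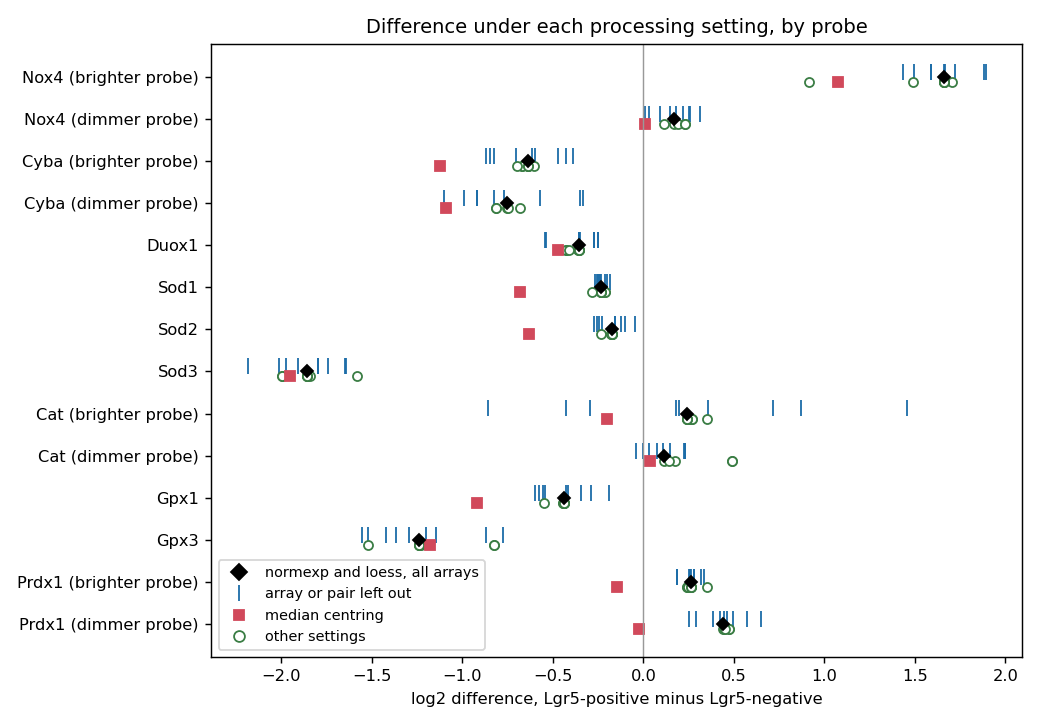
Log2 difference, Lgr5-positive minus Lgr5-negative, of each probe under the main processing (diamond), with an array or pair left out (ticks), with median centring (square) and under the other settings (open circles). Nox4 (brighter probe) stays between 0.91 and 1.89 and Sod3 between -2.18 and -1.58, the brighter Cat probe lies on both sides of 0, and both Prdx1 probes fall to just below 0 with median centring.

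The comparison of the gate with the reference RNA did not enter the choice of members and was tested. It asks whether the mean log2 ratio of both fractions differed from 0, two-sided in limma, with adjustment over all 15680 genes. Without dye swaps, a dye effect of a probe cannot be told apart from the cells here. Nox4 was 4.54 above the reference on its brighter probe (SE 0.15, adjusted p = 3.04e-06), or 23.2-fold, and higher on 6 of 6 arrays. Its dimmer probe stood at 0.53. Gpx3 was 1.81 above the reference (SE 0.18, adjusted p = 0.000143), or 3.50-fold, and Gpx1 was 0.53 above it (SE 0.11, adjusted p = 0.0053), each on 6 of 6 arrays. Prdx1 was below the reference, at -0.55 (SE 0.08, adjusted p = 0.000914) on 6 of 6 arrays. Cat was 1.85 above the reference (SE 0.63, adjusted p = 0.0361) on 4 of 6 arrays, and that call was lost when any 1 of the 4 arrays of replicates 1 and 3 was left out (adjusted p 0.0915 to 0.115) and with median centring (adjusted p = 0.179). Cyba, Duox1, Sod1, Sod2 and Sod3 did not pass, with values from -0.10 to 0.31 and adjusted p from 0.148 to 0.657. Of these, Sod3 averaged the fractions that lay on opposite sides of the reference. In all, 4 members were above the reference and 1 below it, against 30.1% and 35.2% of all genes (65.3% in either direction). With median centring the split was 2 above (Nox4, Gpx3) and 3 below (Prdx1, Cyba, Sod2). With the pair as a random effect, the call of Gpx1 was lost (adjusted p = 0.0558) and the other 4 were kept.

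The 5 genes whose log2 ratios followed the brighter Nox4 probe most closely over the 6 arrays were Trabd2b (Pearson r = 0.992), Adgra3 (0.989), Tubb2a (0.988), Ildr1 (0.988) and Sfrp2 (0.984). Their differences lay between 0.71 for Tubb2a, a tubulin, and 1.37 for Ildr1, and all 5 were positive in each pair. Sfrp2, a secreted modulator of Wnt signalling, averaged 0.73 on Lgr5-positive arrays and -0.48 on Lgr5-negative arrays. These points share the arrays and the split into fractions, and 60 genes reached an r of at least 0.95, so the ranking is a description.

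The wider machinery of peroxide was read through 6 lists of 84 other genes, of which 75 were tested. These lists were drawn up with earlier results of these data known. With the group alone, 0 of 75 passed in limma, where 0.612% of all genes did, and 5 had an unadjusted p under 0.05. With the pairs as a block, 6 passed, 1 higher and 5 lower, or 8% of the lists against 7.72% of all genes. The median difference was -0.06, against 0.01 over all genes.

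Aqp1, an aquaporin of endothelial and other membranes, had the largest difference in these lists. It averaged 1.14 ± 0.74 on Lgr5-positive arrays and 3.00 ± 0.27 on Lgr5-negative arrays (SD, n = 3 each), a difference of -1.86 (SE 0.38), with pairs at -2.13, -1.03 and -2.42. In limma its adjusted p was 0.115 without the pairs and 0.00864 with them as a block, and it passed in all 7 blocked settings. It fell in that fit beside the endothelial markers, 8 of 11 of which were lower with the block, and their part in it was not tested. The other 3 aquaporins tested did not pass, with Aqp5 at -0.81 (-0.46 on a second probe).

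Of 9 tested NADPH oxidases and partners, 1 passed with the block. Noxo1, an organiser subunit of the Nox1 complex, was at -0.83 (adjusted p = 0.0452 with the block, against 0.209 when the fit had no pairs), with pairs at -0.42, -0.73 and -1.36. Rac1, a small GTPase that activates several NADPH oxidases, was at -0.50 (adjusted p = 0.757, and 0.110 with the block; -0.40 on a second probe), and Nox1 was at 0.11. Cybb, the oxidase of phagocytes, and Nox3 were not well above background on enough arrays to be tested. Of 16 other sources of peroxide, Loxl3, a lysyl oxidase, rose with the block (0.70, adjusted p = 0.0245, against 0.625 with the group alone), and Lox itself was at 0.45 (adjusted p = 0.694, and 0.118 with the block; -0.011 with median centring).

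**Figure D4:**
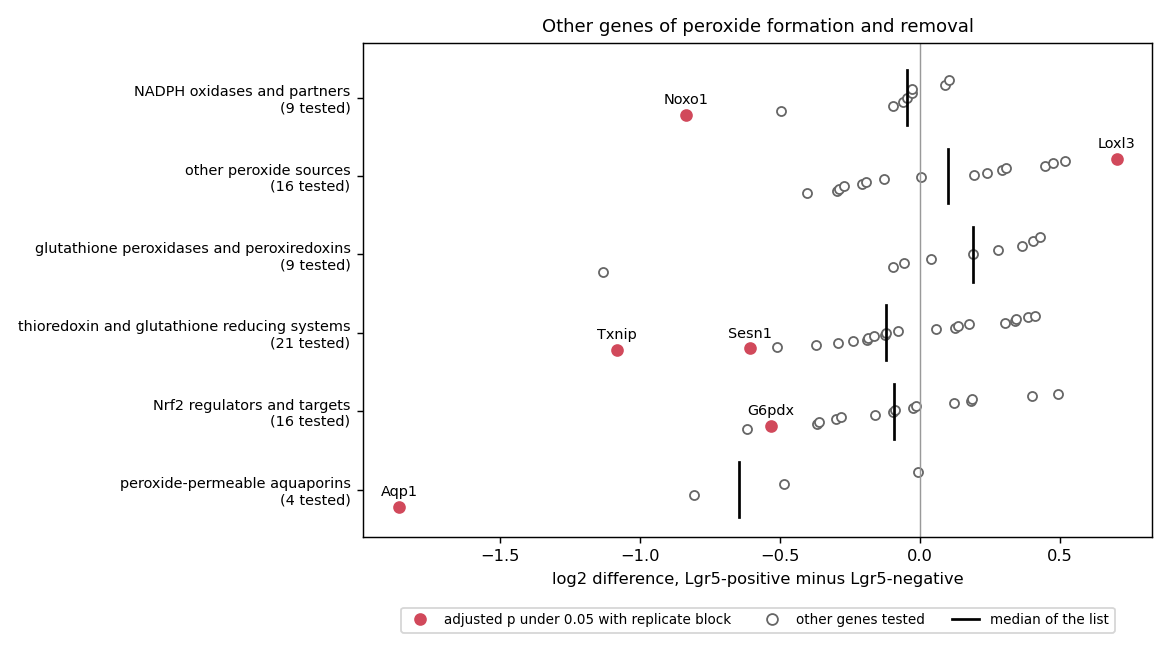
Log2 difference, Lgr5-positive minus Lgr5-negative, of each of the 75 tested genes in 6 lists of peroxide formation and removal; filled points passed at an adjusted p under 0.05 with the pairs as a block, and black bars are the list medians. The 6 filled points are Noxo1, Loxl3, Txnip, Sesn1, G6pdx and Aqp1, and the medians of the lists other than the aquaporins lie between -0.12 and 0.19.

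None of the 9 other glutathione peroxidases and peroxiredoxins passed in either fit (0 of 9). Gpx2, a glutathione peroxidase of epithelia, was at -1.13 (adjusted p = 0.961, and 0.053 with the block) and Prdx4, the peroxiredoxin of the endoplasmic reticulum, at 0.43 (adjusted p = 0.781, and 0.0906 with the block; -0.0022 with median centring). Of 21 genes of the thioredoxin and glutathione systems, their regulators included, 2 fell with the block. Txnip, which binds and inhibits thioredoxin, was at -1.08 (adjusted p = 0.0351), with -0.13 on a second probe, and Sesn1, a sestrin, at -0.61 (adjusted p = 0.0424). With the group alone the adjusted p was 0.338 and 0.385. Of 16 regulators and targets of Nrf2, the transcription factor of the antioxidant response, only G6pdx, which supplies NADPH, passed with the block (-0.53, adjusted p = 0.0441; 0.630 with the group alone). Osgin1, an oxidative stress response gene, was at 0.49 (adjusted p = 0.711, and 0.0761 with the block). Nfe2l2, which encodes Nrf2, was at 0.12, Hmox1 at 0.18 and Nqo1 at 0.40, none past the test. Apart from Aqp1, these blocked calls were held in 2 to 4 of the 7 blocked settings.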

How the data were processed

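The authors deposited 1 Agilent Feature Extraction file per array (version 11.0 per the submitters' processing notes, 11.0.1.1 per the file headers), with the median intensity of each spot and its background and a log10 ratio of Cy5 over Cy3, per the file headers. They also deposited a table of log2 ratios. Each of its probes has a median of 0 over the 6 arrays (100%), and 81.6% to 83.2% of values per array match the centred scanner ratio to 0.001. What made the rest differ is not known.

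Median signals were corrected with normexp (offset 50) and normalized by loess in limma 3.58.1 under R 4.3.3. Outlier-marked and control spots got weight 0 in loess and were dropped, and spots of 1 probe were averaged. Probes were named through RefSeq transcripts (table of GRCm38.p6, names only, since the arrays are annotated on mm9), which named 27509 of 55681 probes. Kept probes were well above background in Cy5 on at least 3 of 6 arrays (34552). Each gene was read from its brightest kept probe, leaving 15680 tested genes once 10 with a dropped spot were removed. Differences came from limma (lmFit, eBayes; two-sided) with a single term for group, with Benjamini-Hochberg adjusted p under 0.05. The values of dimmer probes come from the same model fitted to all probes. The code was tested on simulated data.

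Same-numbered arrays deviated together from their group means (correlations across genes of 0.810, 0.819 and 0.675 for replicates 1 to 3), so the numbers pair the arrays by the criterion of a correlation over 0.1 in every pair. Where the pairing comes from (animals, days) is not given in the sources used here. No label says that the samples came from separate animals, so p-values measure only the spread between these samples. The slide or scan as a block could not be fitted with 1 slide and 1 scan. The members and gene lists were chosen with earlier results of these data known. The named genes are all members with every probe, the 5 genes most correlated with Nox4, and in each list the genes past the threshold in the group-only fit (at most 4; if there were none, the lowest 2 by p) and up to 4 past it in the blocked fit. Nox1, Nfe2l2, Hmox1 and Nqo1 were named besides, after their values were seen.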

Additional observations from a re-analysis of the deposited data

How the results depend on the processing

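The count of genes changed over the whole array was 96 with the group alone and 0 to 371 when an array or pair was left out. It was 9 with median centring, 44 when every array had to pass as well above background and 1210 with the replicate block. In blocked fits it was 5790 with median centring, 738 with the scanner's ratios, 763 with the deposited table, and 1397, 326 and 854 without replicate 1, 2 or 3. The count among the 75 pathway genes was 0 with the group alone, 0 to 1 with arrays left out (Aqp1, without Lgr5-positive replicate 2) and 6 with the block. In blocked fits it was 41 with median centring (all lower, 41 of 41, with the median of all genes at -0.29), 2 with either the deposited table or the scanner's ratios, and 6, 2 and 3 without replicate 1, 2 or 3. These blocked combinations were chosen after seeing the data. The brighter Nox4 probe gave 1.08 with median centring, 0.91 as the mean of both probes, and 1.44 to 1.89 with arrays or pairs left out. With median centring Lox was at -0.0113, Prdx4 at -0.0022, each with and without the block, and Sod3 against the reference at -0.19. Cyba against the reference ranged from -0.1961 to 0.0254 with single arrays left out, above 0 without Lgr5-positive replicate 3 and (0.0243) without Lgr5-negative replicate 2. The deposited table is centred per probe and so gives no value against the reference. The cause of these shifts was not tested. Precision is limited by 3 arrays per group.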

Other observations

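The gap of Cat between replicate 2 and the other replicates was shared by other genes. On both arrays of replicate 2, 35 genes, Cat among them, were at least 3.15 (log2) below both other arrays of the same fraction, against 0 genes for replicate 1 and 1 gene for replicate 3 at the same gap. The widest gaps, picked after the values were seen, were those of Acot3 (32.1-fold), A130077B15Rik (23.7-fold), Slc35e2 (23.4-fold) and Pitpnc1 (22.9-fold). Acot3, an acyl-CoA thioesterase of peroxisomes, had log2 ratios of 4.17, -0.92 and 4.24 on the Lgr5-positive arrays and 3.79, -1.22 and 3.86 on the Lgr5-negative arrays. At a gap of at least 1, there were 176, 320 and 27 genes for replicates 1, 2 and 3. The labels give the same strain and genotype for all 6 samples.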
